A study of Mus musculus with 66 samples.

Results

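The members described here are 10 mouse genes of purine and pyrimidine salvage and breakdown, namely Ada, Nt5e, Pnp, Xdh, Adk, Upp1, Cda, Gda, Hprt and Aprt, which were taken by symbol from the deposited RNA table of small intestinal organoids. The table held 9 of the 10 genes among 8978 gene symbols, and RNA of Nt5e was not analysed here. Adk was listed as 2 transcripts and each other measured member as 1, so the members made up 10 of 9481 transcripts.

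All organoids carried the Lgr5 GFPDTR/+ allele, a reporter and toxin receptor at the locus of the stem cell receptor Lgr5, and came from a single organoid source. ENR organoids, grown with EGF, Noggin and R-Spondin, hold stem cells and differentiated cells side by side. CV organoids received in addition the GSK3 inhibitor CHIR99021 at 3 µM and valproic acid, an inhibitor of histone deacetylases, at 1 mM, a medium used to enrich stem cells. EN organoids were deprived of R-Spondin, a Wnt enhancer, which drives differentiation mainly into enterocytes. CV organoids were also cultured for longer than EN organoids, so time in culture and medium cannot be told apart. RNA-seq and ATAC-seq had 4 libraries for each culture, the histone marks H3K27ac, H3K4me3 and H3K27me3 were used in 3 libraries each, and the transcription factor Hnf4g had 1 library per culture. No source says that libraries of a culture were separate cultures, so the p-values measure the spread between these libraries, which may be technical.

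Cells obtain nucleotides by building them from small precursors (de novo synthesis) or by recycling preformed bases and nucleosides (salvage), and they dispose of surplus by breakdown. Nt5e removes the phosphate of AMP outside the cell, Ada turns adenosine into inosine, Pnp splits inosine and guanosine into base and sugar phosphate, Gda turns guanine into xanthine, and Xdh oxidizes hypoxanthine and xanthine to uric acid. Adk returns adenosine to AMP, Hprt returns hypoxanthine and guanine to nucleotides, and Aprt does the same for adenine. On the pyrimidine side, Upp1 splits uridine into uracil and a sugar phosphate, and Cda turns cytidine into uridine. The small intestinal epithelium meets nucleic acids from food and from shed cells, and villus enterocytes are a known site of purine breakdown.

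RNA libraries held 5630977 to 8859757 expected counts in transcripts other than spike-ins. The stem cell and enterocyte marker lists separated EN from CV as labelled, but the stem cell list did not separate CV from ENR. All 7 stem cell markers and all 8 proliferation markers were lower in EN than in CV, and all 10 enterocyte markers were higher. Their summed levels were 59200 to 66300 TPM in EN against 20000 to 21100 in CV and 10800 to 12500 in ENR. Fabp1 was the largest part of these sums, with means of 33035 TPM in EN, 16366 in CV and 6740 in ENR. Between CV and ENR, 4 enterocyte markers were higher in CV, 5 were lower and 1 was not called (median log2 fold change -0.23). Goblet markers (6 of 6 measured) and enteroendocrine and tuft markers (5 of 5) were also higher in EN than in CV. Their median log2 fold changes were 5.67 and 6.34, against 2.87 for the enterocyte markers. Some of these folds rest on few counts in CV. The highest CV library held 5 counts of Dclk1, 15 of Trpm5, 16 of Clca1, 22 of Chga and 27 of Muc2. The other markers of both lists had more, up to 5291 for Fcgbp. Both lists were also higher in EN than in ENR (6 of 6 and 5 of 5, medians 2.59 and 1.74, against 2.73 for enterocyte markers). The paper describes Muc2, Dclk1 and Reg4 of these lists, and the Paneth marker Defa6, as not enriched in EN over ENR. It draws there on RNA and protein of changing proteins, whereas the values here are RNA alone. Of the Paneth markers, 2 of 6 were higher and 4 were lower in EN than in CV. All 6 were lower in EN than in ENR, Defa6 with a log2 fold change of -1.30. Against ENR, 2 stem cell markers were higher in CV, 4 were lower and 1 was not called. Their summed levels were 302 to 337 TPM in CV against 931 to 1020 in ENR. Most of that gap was Olfm4, at 7.04 ± 4.21 TPM (SD) in CV and 708 ± 36.8 in ENR. Also lower in CV were Lgr5 (log2 fold change -0.521), Axin2 (-0.221) and Smoc2 (-0.204). Cd44 (2.02) and Sox9 (0.354) were higher. Of the proliferation markers, 6 were lower in CV and 2 not called. The stem cell markers were thus mixed and did not, as a list, show the enrichment given for CV against ENR. From imaging of the Lgr5 reporter, the paper describes Lgr5-positive cells as the main cell type in CV. It also reports stem cell markers, in both RNA and protein, as enriched in CV and depleted in EN. Published signatures of Lgr5-positive and Lgr5-negative cells were compared there with proteins enriched in CV and EN. The non-epithelial markers summed to 3.30 to 20.7 TPM in all libraries, with 2 of the 5 tested higher in EN. In such bulk samples, fewer cells of a type and less RNA per cell cannot be told apart. How far cell makeup accounts for any difference below was not tested.

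At each of the 10 genes, including Nt5e, 1 region of the deposited union of ATAC and histone peaks lay within 500 bp of the annotated start site. In coordinates of the mouse build mm9, these regions were chr2:163575290-163576504 for Ada, chr9:88221868-88222796 for Nt5e, chr14:51563943-51565476 for Pnp, chr19:21545992-21547388 for Gda and chr17:74298597-74299911 for Xdh. They were chr14:21870539-21872525 for Adk, chrX:50341123-50342590 for Hprt, chr8:125099464-125100950 for Aprt, chr11:9017701-9019286 for Upp1 and chr4:137922747-137924393 for Cda. Each covered the start site and exon sequence of its gene. The Adk region also covered exon sequence of the neighbour Ap3m1, so its values belong to both genes.

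The 250 bases before the start sites differed in how many CG pairs they held, the dinucleotide that is dense in the promoters of broadly used genes. Shown here, from the mm9 genome and on the strand of the gene, are the 2 windows with the fewest and the 2 with the most among members measured as RNA, with CG pairs in capitals. They were chosen after their values were seen.
Xdh, chr17:74299523-74299772, minus strand: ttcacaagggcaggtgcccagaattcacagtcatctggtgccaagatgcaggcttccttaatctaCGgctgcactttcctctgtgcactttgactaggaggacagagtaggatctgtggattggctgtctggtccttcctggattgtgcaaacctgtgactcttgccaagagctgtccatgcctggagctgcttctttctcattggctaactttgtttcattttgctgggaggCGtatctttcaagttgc
Gda, chr19:21547163-21547412, minus strand: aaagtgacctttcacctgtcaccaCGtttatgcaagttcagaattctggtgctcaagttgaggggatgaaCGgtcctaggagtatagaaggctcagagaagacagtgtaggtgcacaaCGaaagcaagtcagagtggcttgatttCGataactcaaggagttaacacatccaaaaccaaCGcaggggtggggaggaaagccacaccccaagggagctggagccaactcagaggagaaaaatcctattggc
Adk, chr14:21871605-21871854, plus strand: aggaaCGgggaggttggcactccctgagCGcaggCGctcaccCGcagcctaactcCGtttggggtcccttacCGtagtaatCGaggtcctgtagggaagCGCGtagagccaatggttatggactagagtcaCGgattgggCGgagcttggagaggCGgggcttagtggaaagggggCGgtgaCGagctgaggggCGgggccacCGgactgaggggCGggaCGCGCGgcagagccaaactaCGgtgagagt
Hprt, chrX:50341064-50341313, plus strand: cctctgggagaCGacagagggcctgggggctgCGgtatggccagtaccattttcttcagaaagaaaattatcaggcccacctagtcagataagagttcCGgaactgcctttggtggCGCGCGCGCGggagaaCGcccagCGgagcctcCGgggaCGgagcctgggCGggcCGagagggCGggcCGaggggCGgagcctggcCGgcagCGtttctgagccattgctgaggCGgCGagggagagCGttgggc
The window held 2 CG pairs at Xdh and 5 at Gda, but 21 at Adk and 22 at Hprt. The others held 6 at Upp1, 11 at Pnp, Cda and Aprt, 14 at Ada and 21 at Nt5e. Among 8146 genes of the RNA table with such a window, the median was 16, and it was 10 for the 1243 genes that were at least 2-fold higher in EN than in CV and 16 for the 1701 that were at least 2-fold lower. Of the members, Cda, Xdh, Pnp and Gda passed that 2-fold rise and held 2 to 11 CG pairs, where the quartiles of the 1243 genes were 4 and 19. Xdh thus lay below the lower quartile and the other 3 between the quartiles.

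Between EN and CV, RNA of all 9 measured members differed at an adjusted p under 0.01 (edgeR's quasi-likelihood test with Benjamini-Hochberg adjustment over 9288 transcripts). Cda, Xdh, Pnp, Gda, Upp1 and Aprt were higher in EN, and Adk, Hprt and Ada were lower. Calls were frequent in this comparison, with 76.4% of all transcripts called, 35.2% higher and 41.2% lower in EN. A rule that also asked for a 2-fold change called 35.4% of all transcripts and 4 of the 9 members, namely Cda, Xdh, Pnp and Gda. The 4 values of EN and CV did not overlap for 8 members, the exception being Aprt, beside 76.5% of all transcripts. The median log2 fold change was 0.68 over the members and -0.08 over all transcripts. No member was lost to the filter on low counts, although the second Adk transcript, at most 12.2 TPM in any library, did not pass the test (log2 fold change -0.82 ± 0.77 SE, adjusted p = 0.332).

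**Figure D1:**
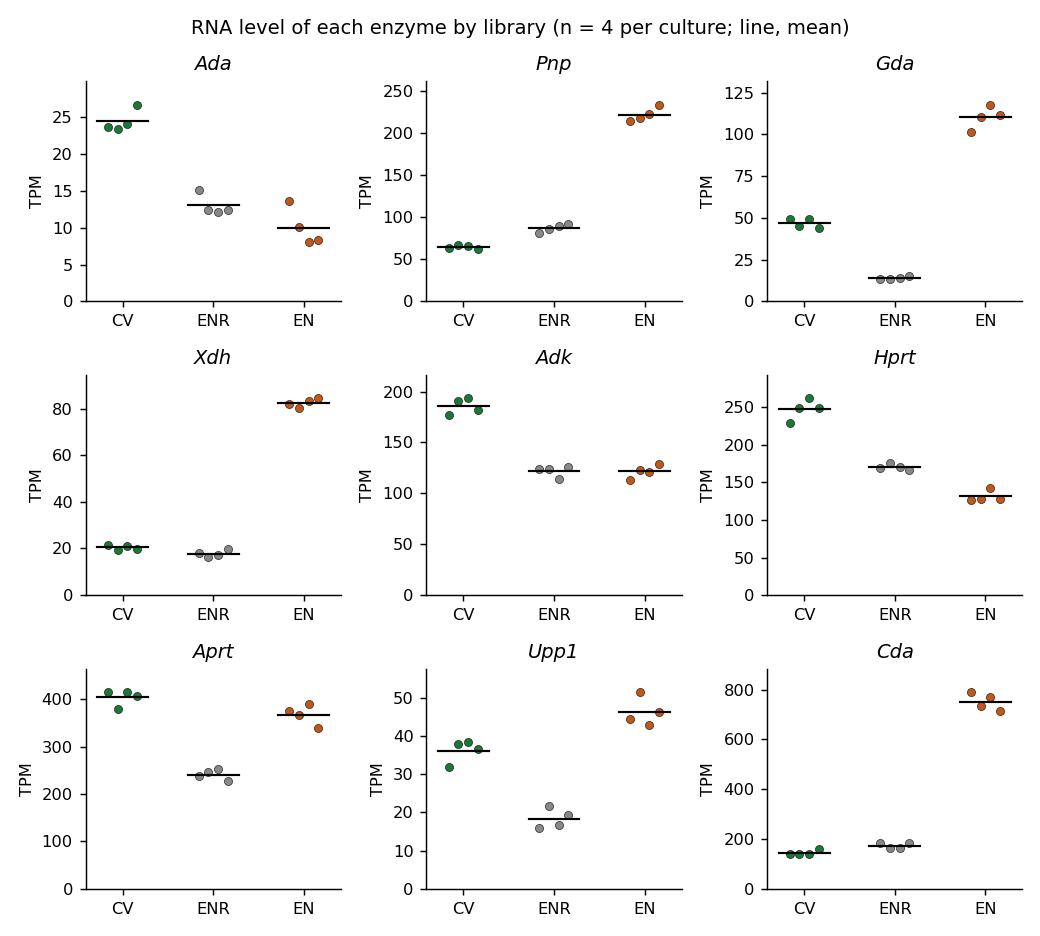
RNA level in TPM (vertical axes, from 0) of the 9 measured members in the 4 libraries of CV, ENR and EN, each point 1 library and each line a mean. Cda, Pnp, Gda and Xdh stood highest in EN, whereas Ada and Hprt stood highest in CV.

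The 4 enzymes of the route from purine nucleoside to uric acid did not move together. Values are given as CPM, the count of a transcript as a share of its library total, set to a common library size after TMM scaling. Ada, the first enzyme of the route, measured 22.9, 22.7, 23.5 and 25.4 CPM in CV, 16.4, 13.3, 13.1 and 13.3 in ENR, and 16.1, 12.4, 9.81 and 9.93 in EN. All 4 CV libraries thus lay above all others, while ENR and EN overlapped. Ada fell from CV to EN by 0.96 on the log2 scale (SE 0.14, adjusted p = 1.09e-05), and CV was above ENR by 0.75 (SE 0.13, adjusted p = 0.000148). The difference of EN from ENR, -0.21 ± 0.15 (SE), did not pass (adjusted p = 0.197). Without EN replicate 1, the highest of the EN libraries, it was -0.40 with an adjusted p of 0.00857.

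Pnp, which acts on the inosine made by Ada, measured 112, 118, 117 and 107 CPM in CV, 159, 167, 175 and 180 in ENR, and 459, 481, 491 and 512 in EN. The 3 cultures did not overlap and rose in the order CV, ENR, EN. EN exceeded CV 4.28-fold (log2 fold change 2.10 ± 0.05 SE, adjusted p = 4.67e-15) and ENR 2.85-fold (1.51 ± 0.05). Pnp shares reads with its near-identical neighbour Pnp2, so the split between both is uncertain. Pnp2 measured 17.8 to 20.7 CPM in CV, 33.4 to 38.8 in ENR and 115 to 125 in EN, and the summed counts of both genes gave a log2 fold change of 2.20 ± 0.04 (SE) from CV to EN.

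Gda, which takes guanine out of the salvage pool, had its lowest level in the mixed culture. It measured 163, 151, 166 and 146 CPM in CV, 49.4, 50.2, 52.4 and 57.3 in ENR, and 412, 461, 494 and 466 in EN. Every CV library lay above every ENR library and below every EN library. EN exceeded ENR 8.73-fold (log2 fold change 3.13 ± 0.07 SE, adjusted p = 2.34e-15) and CV 2.93-fold (1.55 ± 0.06), and CV exceeded ENR 2.98-fold (1.58 ± 0.07). Among all transcripts, the Gda difference of EN from ENR stood at percentile 99.1, above that of the other 8 members. Counts of Gda were not whole, so some of its reads were shared with another listed transcript.

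Xdh, the last enzyme of the route, was at one level in CV and ENR within their spread and higher in EN. It measured 60.5, 55.1, 60.3 and 55.3 CPM in CV, 57.5, 51.2, 53.9 and 62.3 in ENR, and 282, 285, 295 and 298 in EN. EN exceeded CV 5.02-fold (log2 fold change 2.33 ± 0.05 SE, adjusted p = 3.72e-15) and ENR 5.14-fold (2.36 ± 0.05). CV and ENR overlapped and differed by 0.03 ± 0.06 (adjusted p = 0.629).

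The 3 salvage enzymes that rebuild purine nucleotides moved less. Hprt, often used as a reference gene in quantitative PCR, measured 170, 185, 195 and 181 CPM in CV, 140, 144, 140 and 137 in ENR, and 116, 121, 133 and 117 in EN. The cultures did not overlap, and EN fell below CV by 0.59 on the log2 scale (SE 0.05, adjusted p = 2.26e-08) and below ENR by 0.21 (SE 0.05, adjusted p = 0.00161). Adk measured 182, 196, 199 and 184 CPM in CV, 142, 141, 130 and 144 in ENR, and 142, 160, 156 and 165 in EN. CV stood above both other cultures, by 0.45 ± 0.05 (log2, SE) over ENR, whereas EN and ENR overlapped and their difference of 0.16 ± 0.05 missed the threshold (adjusted p = 0.0129). Without EN replicate 1 that difference was 0.20 with an adjusted p of 0.00188.

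Aprt measured 181, 165, 181 and 173 CPM in CV, 116, 118, 121 and 109 in ENR, and 201, 206, 213 and 181 in EN. ENR was below both other cultures without overlap, and EN exceeded ENR 1.72-fold (log2 fold change 0.79 ± 0.05 SE, adjusted p = 1.70e-09). With spike-in library sizes that difference was 0.26 and not called (adjusted p = 0.177). CV and EN overlapped, with a log2 fold change of 0.19 ± 0.05 (adjusted p = 0.00275), which lost its call without CV replicate 2 (0.17, adjusted p = 0.0116).

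Both pyrimidine enzymes were higher in EN than in either other culture. Cda, which deaminates cytidine and deoxycytidine, measured 58.4, 57.1, 57.8 and 64.9 CPM in CV, 85.0, 75.4, 75.2 and 83.9 in ENR, and 403, 392, 400 and 363 in EN. The cultures did not overlap. EN exceeded CV 6.53-fold (log2 fold change 2.71 ± 0.06 SE, adjusted p = 1.02e-15) and ENR 4.86-fold (2.28 ± 0.05). Upp1 measured 20.2, 24.2, 24.5 and 22.8 CPM in CV, 11.4, 15.2, 11.7 and 13.6 in ENR, and 34.7, 41.8, 34.3 and 36.3 in EN. As with Gda, ENR was lowest and EN highest without overlap. EN exceeded ENR 2.83-fold (log2 fold change 1.5 ± 0.10) and CV 1.6-fold (0.68 ± 0.10, adjusted p = 1.06e-05).

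**Figure D2:**
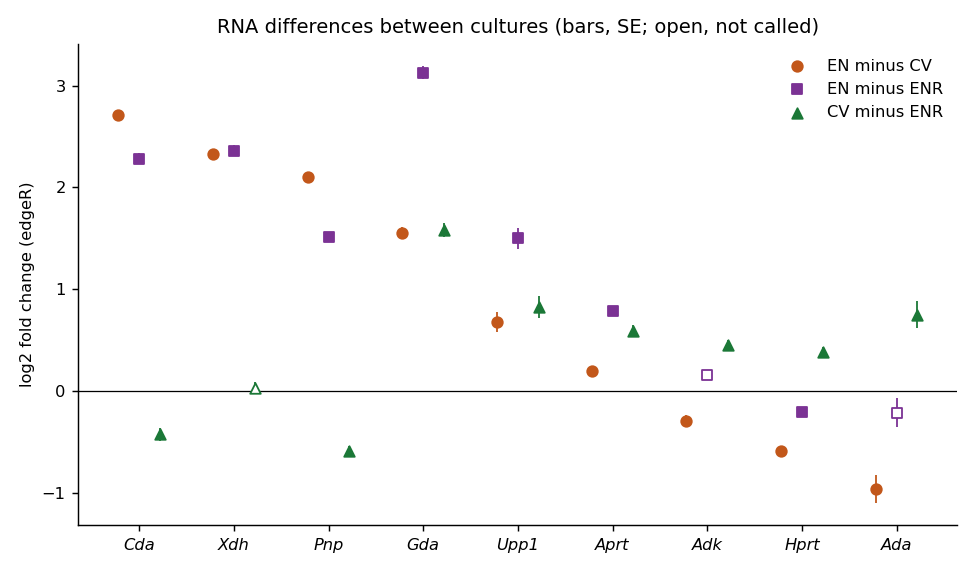
Log2 fold change from edgeR (vertical axis) of the 9 measured members for EN minus CV, EN minus ENR and CV minus ENR, with bars for the SE and open symbols for differences that were not called. Cda, Xdh, Pnp and Gda lay above 1 in both comparisons of EN, and CV minus ENR ranged from -0.59 for Pnp to 1.58 for Gda.

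Between EN and ENR, 7 of 9 members were called, 6 higher (Gda, Xdh, Cda, Pnp, Upp1 and Aprt) and 1 lower (Hprt), beside 72.7% of all transcripts, 35.5% higher and 37.2% lower, and 7 did not overlap, beside 74.2%. The median was 1.5 over the members and -0.01 over all transcripts. Between CV and ENR, 8 of 9 were called, 6 higher in CV (Gda, Upp1, Ada, Aprt, Adk and Hprt) and 2 lower (Cda and Pnp), beside 60.0% of all transcripts, 30.2% higher and 29.8% lower, and 8 did not overlap, beside 65.7%. Here the median was 0.45 over the members and -0.01 over all transcripts. The comparisons share libraries of EN, CV or ENR in pairs, so their values are not independent.

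These directions depend in part on the scale, because the relative amount of all RNA per library is a choice. On log2(TPM + 1) the median of all transcripts moved to -0.34 between EN and CV, with 2263 transcripts called higher and 4976 lower, against 3267 and 3829 with TMM. With library sizes set by the spike-ins it was -0.49 (1473 higher, 4292 lower), and on the deposited mRNA copies it was 0.70 (4368 higher, 1262 lower), so both uses of the spike-ins shifted it in opposite directions. Cda, Xdh, Pnp and Gda were higher in EN than in CV on each of these scales. The difference of Aprt turned to -0.14 on log2(TPM + 1) and -0.23 with spike-in library sizes, and on the deposited copies those of Adk and Hprt turned to 0.54 and 0.21. Upp1 lost its call with spike-in library sizes (0.24, adjusted p = 0.266) and Ada on the deposited copies (-0.28, adjusted p = 0.361). Between EN and ENR, Hprt and Ada turned to 0.73 and 0.86 on the deposited copies, where the median of all transcripts was 1.02 (5499 called higher, 810 lower), and Adk turned to -0.36 with spike-in library sizes, where it was -0.52 (1094 higher, 4275 lower). On the deposited copies the same difference of Adk was 1.16 and called (adjusted p = 9.90e-05), and it was also called as 0.19 with DESeq2 size factors in edgeR (adjusted p = 0.00381) and in the DESeq2 test (0.00208). Between CV and ENR, the scales that use the spike-ins called fewer members, 3 on the deposited copies (1435 transcripts higher, 481 lower) and 3 with spike-in library sizes (1039 higher, 1597 lower), while log2(TPM + 1) called 8 (3713 higher, 1895 lower).

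Levels were compared between genes in TPM, which accounts for transcript length. In CV the order was Aprt (404 ± 16.8 TPM, SD, n = 4), Hprt (247 ± 13.4), Adk (186 ± 7.60), Cda (145 ± 10.8), Pnp (64.7 ± 2.35), Gda (47.0 ± 2.65), Upp1 (36.1 ± 3.06), Ada (24.5 ± 1.51) and Xdh (20.5 ± 1.00), with no overlap between neighbours. In EN it was Cda (752 ± 34.4), Aprt (368 ± 21.5), Pnp (222 ± 8.64), Hprt (131 ± 7.48), Adk (122 ± 6.72), Gda (110 ± 6.75), Xdh (82.4 ± 1.76), Upp1 (46.2 ± 3.68) and Ada (10.0 ± 2.56). There, Hprt overlapped Adk and Adk overlapped Gda. In ENR, Aprt was highest at 241 ± 11 TPM and Ada lowest at 13.0 ± 1.43, and the pairs Cda and Hprt, Upp1 and Xdh, and Gda and Ada overlapped. Cda thus passed from the fourth place in CV to the first in EN, while Ada passed from the eighth to the last.

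The transcripts with the most similar pattern over the 12 libraries were sought for the members with the largest rise and the largest fall, by the Euclidean distance of centred log2 CPM. For Cda they were Dhrs1 (distance 0.247), Ms4a10 (0.306) and Dpyd (0.339), the last of which encodes the rate-limiting enzyme of uracil and thymine breakdown. For Ada they were Jun (0.502), Habp4 (0.560) and Ube2o (0.565). Dpyd measured 39.0 ± 0.75 TPM (SD, n = 4) in CV, 48.3 ± 3.69 in ENR and 194 ± 9.51 in EN.

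Other nucleotide enzymes were described by lists. Of 11 measured enzymes of de novo purine synthesis, 10 fell from CV to EN and 1 was not called (Adss, -0.03), with a median log2 fold change of -2.86. The largest falls were those of Gart, which carries 3 steps of the route, from 92.0 ± 3.07 to 7.31 ± 0.49 TPM, and of Ppat, which makes its committed step, from 40.2 ± 1.34 to 3.19 ± 0.31. All 5 enzymes of de novo pyrimidine synthesis fell, with a median of -2.49. Among them, Ctps, which makes CTP, fell from 36.3 ± 0.88 to 1.67 ± 0.53 TPM and Cad, which starts the route, from 13.8 ± 1.85 to 1.09 ± 0.15. The 8 proliferation markers fell beside them, with a median of -4.83. These values stand beside 41.2% of all transcripts called lower and a median of -0.08.

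The remaining salvage and breakdown enzymes split. Of 18 other purine enzymes, 7 rose, 9 fell and 2 were not called, with a median of -0.22. Beside Pnp2, the largest rise was that of Samhd1, which degrades dNTPs (16.7 ± 1.05 to 45.9 ± 3.53 TPM), and the largest falls were those of Mtap, which recycles methylthioadenosine (79.7 ± 2.96 to 9.11 ± 0.45), and Dck, which phosphorylates deoxycytidine and deoxypurine nucleosides (13.3 ± 0.90 to 2.14 ± 0.45). Of 11 other pyrimidine enzymes, 6 rose and 5 fell, with a median of 0.32. Dpyd and Cmpk2, a mitochondrial UMP-CMP kinase, had the largest rises (log2 fold changes 2.63 ± 0.05 and 1.43 ± 0.16, SE), while Dctd, which deaminates dCMP, and Dut, which splits dUTP, had the largest falls. Dut fell by 3.27 ± 0.11 on the log2 scale, and Dctd fell from 18.9 ± 1.19 TPM to 0.46 ± 0.29, which is at most 6.1 counts in an EN library and too few for a fold change.

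Of 14 nucleotidases and ectonucleotidases, 5 rose, 8 fell and 1 was not called, with a median of -0.66. Entpd8 and Enpp3, enzymes that split nucleotides at the cell surface, rose by 2.53 ± 0.09 and 2.20 ± 0.24 on the log2 scale. Nt5c3b, a nucleotidase, fell from 21.5 ± 3.24 to 1.57 ± 1.06 TPM, and Nt5dc2 fell from 11.9 ± 1.22 TPM to 0.24 ± 0.05, which is 2 or 3 counts in each EN library and too few for a fold change. Of 6 nucleoside carriers, 3 rose, 2 fell and 1 was not called. Slc28a1, a sodium-coupled carrier of pyrimidine nucleosides, measured 5.60 ± 0.56 TPM in ENR and 87.3 ± 7.5 in EN but at most 2 counts in a CV library, and Slc28a3 rose by 2.66 ± 0.14. The equilibrative carrier Slc29a1 fell from 79.0 ± 4.82 to 6.04 ± 0.47 TPM, and Slc29a2 was at 1 count or fewer in EN.

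Of the 6 genes that make the molybdenum cofactor of Xdh, or supply it with sulfur, Mocos, Mocs2 and Mocs1 rose and Nfs1, Gphn and Mocs3 fell, with a median of 0.69 (Mocs1 and Mocs3 are named to complete the list). Mocos, which adds the sulfur that Xdh needs, rose by 2.83 ± 0.16 on the log2 scale and Mocs2 by 1.73 ± 0.05. Nfs1 (-0.60 ± 0.05) and Gphn (-0.59 ± 0.07) fell, but turned to 0.18 and 0.17 on the deposited copies. Of 7 genes listed as adenosine handling partners, 3 were measured and all 3 rose, beside 35.2% of all transcripts called higher. They were Dpp4 (37.1 ± 2.91 to 226 ± 4.74 TPM), Ahcyl2 (102 ± 2.00 to 173 ± 10.3) and Ahcyl1. Dpp4 is a peptidase that binds Ada at the cell surface in some species. Ahcy, Adora1, Adora2a and Adora2b were not measured, so these genes do not describe adenosine handling as a whole.

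**Figure D3:**
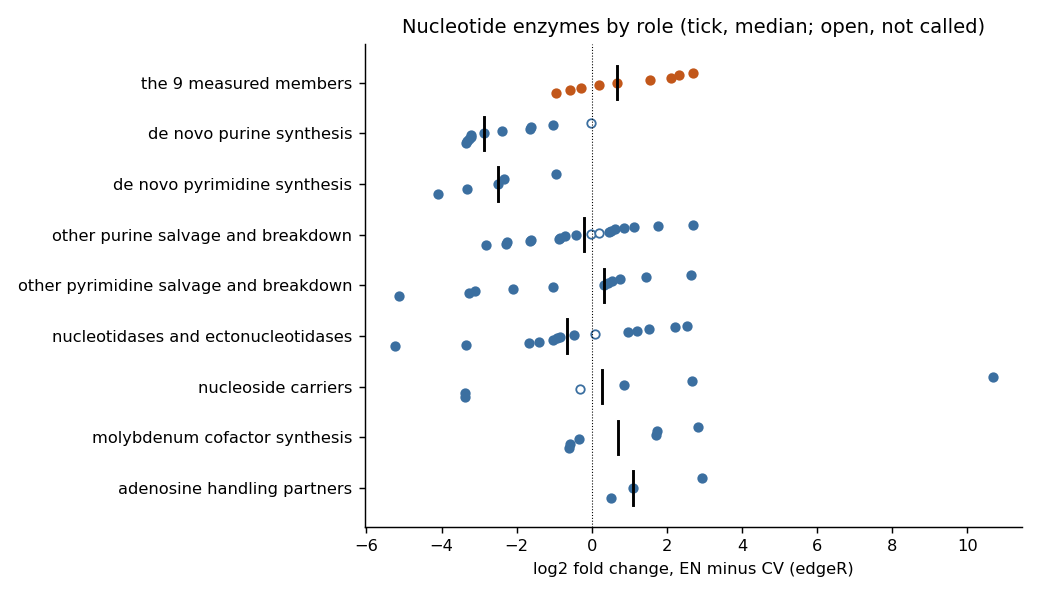
Log2 fold change from CV to EN (horizontal axis, edgeR) of the 9 measured members and of 8 lists of other nucleotide enzymes, each point 1 transcript, with a tick at the median of a list and open points for transcripts not called. Both lists of de novo synthesis lay at or below 0, whereas the salvage and breakdown lists spread to both sides. Slc28a1, at the far right, had at most 2 counts in a CV library, so its position is not a measured fold, and neither is that of Dctd or Nt5dc2, at the far left, or of Slc29a2, which had few counts in EN.

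At the start-site regions, ATAC scores, which measure how open the DNA was, differed between EN and CV for 6 of 10 members (limma on log2(score + 1), adjusted p under 0.05). Cda, Nt5e, Xdh and Upp1 were higher in EN and Ada and Aprt lower, beside 35.2% of all regions called and 34.6% of those within 500 bp of a start site. The Cda region scored 36, 43, 46 and 61 in CV, 64, 68, 46 and 55 in ENR, and 90, 78, 59 and 91 in EN, a log2 difference of 0.77 ± 0.18 (SE, adjusted p = 0.00229) from CV to EN with an overlap of 1 library. Nt5e, for which no RNA value is given here, scored 17, 12, 19 and 16 in CV, 27, 22, 25 and 23 in ENR, and 27, 25, 21 and 25 in EN, so that CV lay below both others (EN minus CV 0.60 ± 0.18, adjusted p = 0.0130).

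At Ada the ATAC score was 25, 30, 36 and 30 in CV and 20, 11, 18 and 23 in EN, without overlap (-0.75 ± 0.23, adjusted p = 0.0152). At Xdh it was 170, 161, 154 and 193 in CV and 215, 203, 219 and 253 in EN (0.39 ± 0.09, adjusted p = 0.00266), although quantile normalization gave 0.10 with an adjusted p of 0.408. Quantile normalization also ended the calls of Upp1 (0.02, adjusted p = 0.887) and Nt5e (0.44, adjusted p = 0.0588). A fit without a trend ended those of Xdh (adjusted p = 0.0656), Upp1 (0.194) and Aprt (0.0746), leaving 3 beside 31521 of 94166 regions called. Several of these calls rested on single libraries. Without CV replicate 2, the calls of Nt5e (adjusted p = 0.0556), Upp1 (0.109) and Aprt (0.0551) were lost, and without CV replicate 3 those of Ada (0.0533), Upp1 (0.116) and Aprt (0.0519), leaving 3 in either case. Aprt (-0.46 ± 0.16) also lost its call without CV replicate 4 (adjusted p = 0.0895) or EN replicate 1 (0.110), Upp1 (0.28 ± 0.10) without EN replicate 2, 3 or 4 (0.0759, 0.0942 and 0.0892), and Ada without EN replicate 2 (0.0573). The call of Cda held when any of these libraries was left out. Pnp, whose RNA exceeded CV 4.28-fold in EN, showed no call in ATAC (-0.13 ± 0.10, adjusted p = 0.358), although quantile normalization gave -0.36 with an adjusted p of 0.00786.

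Between EN and ENR, 3 of 10 regions were called in ATAC, Upp1 higher (0.67 ± 0.10) and Ada (-0.70 ± 0.23) and Aprt (-0.48 ± 0.16) lower, beside 24.0% of all regions and 19.5% of those at start sites. Between CV and ENR, 3 of 10 were called, Upp1 higher in CV (0.38 ± 0.10) and Nt5e (-0.58 ± 0.18) and Xdh (-0.33 ± 0.09) lower, beside 15.8% of all regions and 14.8% of those at start sites. Upp1 thus had its lowest ATAC score in ENR, where its RNA was lowest too.

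H3K27ac, a mark of active start sites and enhancers, was higher in EN than in CV at 4 of 10 start-site regions, those of Cda, Xdh, Adk and Pnp, beside 7.03% of all regions and 20.6% of regions at start sites. Valproic acid, present in CV only, inhibits the enzymes that remove acetyl groups, so medium and culture cannot be told apart for this mark. The Cda region scored 113, 59 and 79 in CV, 81, 73 and 48 in ENR, and 295, 302 and 308 in EN (EN minus CV 1.89 ± 0.25 log2, SE, adjusted p = 4.88e-06). Xdh scored 30, 34 and 65 in CV, 71, 48 and 78 in ENR, and 151, 118 and 155 in EN (1.77 ± 0.31, adjusted p = 0.000280). In both, all EN libraries lay above all others.

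Pnp scored 38, 72 and 60 in CV and 168, 124 and 163 in EN (1.44 ± 0.29, adjusted p = 0.00132). Adk scored 90, 54 and 80 in CV, 167, 150 and 148 in ENR, and 192, 232 and 269 in EN, a rise of 1.63 ± 0.22 (adjusted p = 7.06e-06), while its RNA was lower in EN than in CV. Ap3m1, which shares that region, was also lower as RNA (-0.51 ± 0.06, adjusted p = 1.92e-06). Ada scored 33, 23 and 34 in CV and 10, 11 and 15 in EN, without overlap, but missed the threshold (-1.25 ± 0.46, adjusted p = 0.0982). Gda showed no call (0.75 ± 0.53, adjusted p = 0.472), with 1 CV library at 6 and the others at 58 and 48, and without that library, CV replicate 3, the difference was -0.23. All 4 calls of the mark rested on a variance that followed the mean score, and a fit without that trend called 0 of 10 regions (adjusted p = 0.0554 for Cda, 0.0679 for Adk, 0.0697 for Xdh and 0.107 for Pnp) and 924 regions in all.

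Between EN and ENR, H3K27ac was called at 2 of 10 regions, Cda (2.18 ± 0.25) and Pnp (1.21 ± 0.29), beside 1.57% of all regions and 3.93% of those at start sites. Between CV and ENR, Adk was called (-1.07 ± 0.22, lower in CV) and the other 9 were not, beside 1.83% of all regions and 7.53% of those at start sites, so that 1 of 10 was near the share at start sites. H3K4me3, a mark of start sites, was called at 0 of 10 regions between EN and CV by limma (5 at an unadjusted p under 0.05), beside 4.90% of all regions and 10.0% of those at start sites. With only regions of a mean score of at least 5, limma called 3 of them, Cda and Pnp higher and Ada lower (adjusted p = 0.0346, 0.0269 and 0.0383), beside 15.1% of the regions that passed this filter. Without EN replicate 1 it called 2, Cda and Xdh, beside 6.05% of all regions.

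Between EN and ENR, H3K4me3 was called higher at Cda (1.05 ± 0.23), Gda (0.97 ± 0.21) and Pnp (0.83 ± 0.19), beside 6.18% of all regions and 5.79% of those at start sites. Their adjusted p-values from limma were 0.0405, 0.0388 and 0.0438, close to the threshold. Of all 4810 regions called in this comparison, 4265 were higher in EN. The median log2 difference was 0.44 over all regions and 0.11 over those at start sites. Between CV and ENR, H3K4me3 was called at 0 of 10 by limma (1 at an unadjusted p under 0.05), beside 1.13% of all regions and 0.944% of those at start sites. The repressive mark H3K27me3 was called at 0 of 10 regions between EN and CV by limma (0 at an unadjusted p under 0.05), beside 0.528% of all regions and 0.345% of those at start sites. Its scores at the members were low, 2 to 33 in all libraries but for 1 ENR library at 35 (Nt5e) and 1 at 1 (Aprt).

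**Figure D4:**
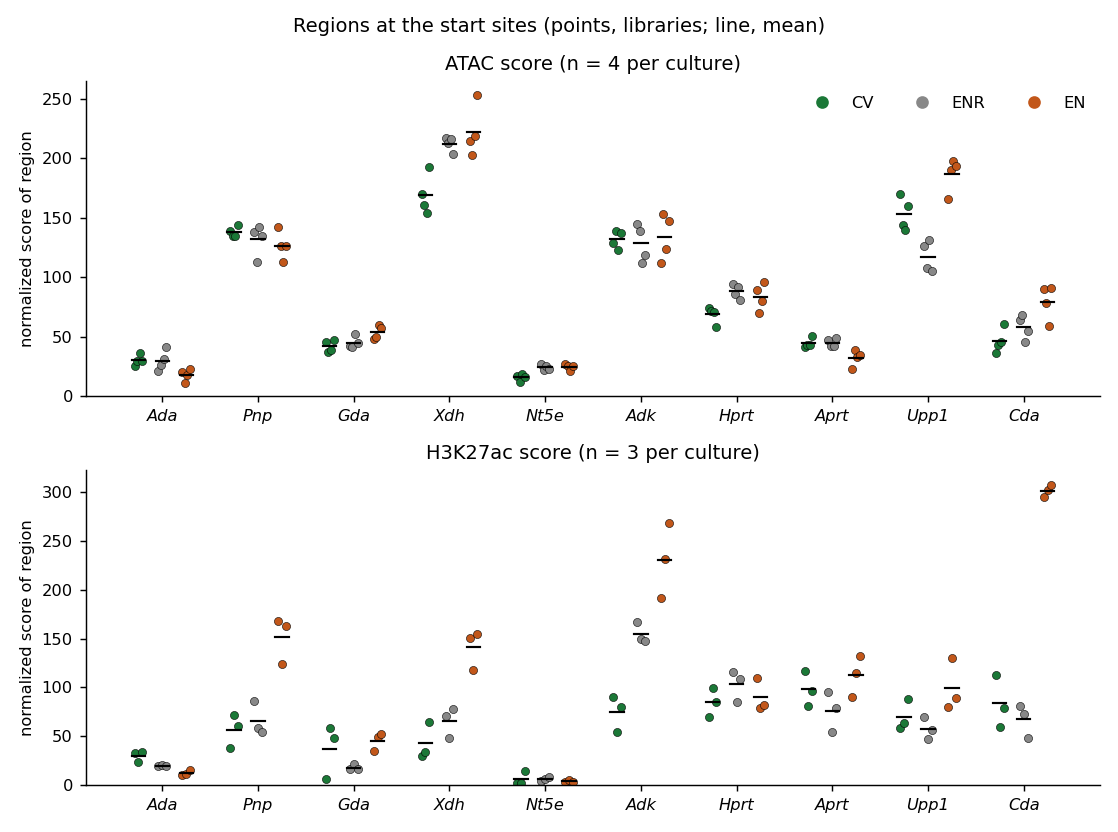
Normalized scores (vertical axes, from 0) of the start-site regions of all 10 members in ATAC (upper panel, 4 libraries per culture) and H3K27ac (lower panel, 3 libraries per culture), with lines at the means. In H3K27ac the EN libraries of Cda, Xdh, Pnp and Adk stood above all CV libraries, while Nt5e stayed at or below 14 in every library.

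Hnf4g is a nuclear receptor, a transcription factor of enterocytes. Its libraries held 84340 reads in regions in CV, 352600 in ENR and 1816497 in EN, so 3 reads stood for 35.6, 8.51 and 1.65 CPM, here scaled to the library total alone. With 1 library per culture no test was made, and intervals (95%, exact Poisson) cover counting error only. At the Cda start site there were 3, 11 and 363 reads, or 35.6 (7.34 to 104), 31.2 (15.6 to 55.8) and 200 (180 to 222) CPM, and the EN value stood at percentile 98.95 of 15650 start-site regions. Adk followed in EN with 117 (102 to 134) CPM at percentile 94.9. In CV it had 8 reads, or 94.9 (41.0 to 187) CPM, so the intervals overlapped. Over 2897 start-site regions above 3 reads in both cultures, the median EN to CV ratio of CPM was 0.859. The paper reports Hnf4g binding as nearly absent in CV. These CPM do not separate bound from background reads, so overlapping intervals do not show equal binding. Hprt had 90.3 (77.0 to 105) and Gda 78.2 (65.8 to 92.1) CPM in EN. The start sites of Upp1 and Aprt had 52.9 and 32.5 CPM in EN, and those of Xdh (47.9), Pnp (36.3), Ada (26.97) and Nt5e (19.8) stood between percentiles 48.7 and 75.3 in EN. The 4 members with a rise of at least 2-fold in RNA thus spread from percentile 66.4 (Pnp) over 75.3 (Xdh) and 88.1 (Gda) to 98.95 (Cda). These percentiles rank reads per region without regard to its length, which ran from 929 bp at Nt5e to 1987 bp at Adk and was 1647 bp at Cda. Over all start-site regions the median was 0 CPM in CV, where 53.1% held 0 reads, 14.2 CPM in ENR and 20.4 CPM in EN.

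Regions farther away were also examined, from 20 kb before to 20 kb after each gene, with rules chosen after values were seen. There were 75 regions away from the start sites, of which ATAC called 16 higher and 9 lower in EN than in CV. Over all 94166 regions, ATAC called 33155 (35.2%), 18480 of them higher in EN, so the calls near the members were about as frequent as elsewhere. Of the called regions near the members, 5 differed by at least 1.5 on the log2 scale and had a mean score of at least 20 in the higher culture. The largest difference was at Gda, whose own start site was not called (0.34 ± 0.14, adjusted p = 0.0650), although it was called without CV replicate 4 (0.39, adjusted p = 0.0499) or without EN replicate 1 (0.39, adjusted p = 0.0469). Its region chr19:21561691-21562382, 13.8 kb upstream and in no annotated gene, scored 13, 14, 11 and 11 in CV, 17, 23, 25 and 21 in ENR, and 89, 98, 107 and 121 in EN (EN minus CV 2.98 ± 0.16 log2, SE, adjusted p = 9.59e-10). All EN libraries lay far above the rest, as did Gda RNA, but ENR lay above CV here and below it in RNA. Hnf4g reads there numbered 3 in CV, 7 in ENR and 132 in EN, or 35.6 (7.34 to 104), 19.9 (7.98 to 40.9) and 72.7 (60.8 to 86.2) CPM. The intervals of CV and EN overlapped, which, as at the Adk start site, does not show equal binding.

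The central 300 bases of that region follow, from mm9 on the plus strand, because the region showed the largest ATAC difference. Capitals mark a match to CAAAGNNCA (N is any base), letters shared by sites of HNF4 factors, searched on both strands.
Gda upstream region, chr19:21561886-21562185: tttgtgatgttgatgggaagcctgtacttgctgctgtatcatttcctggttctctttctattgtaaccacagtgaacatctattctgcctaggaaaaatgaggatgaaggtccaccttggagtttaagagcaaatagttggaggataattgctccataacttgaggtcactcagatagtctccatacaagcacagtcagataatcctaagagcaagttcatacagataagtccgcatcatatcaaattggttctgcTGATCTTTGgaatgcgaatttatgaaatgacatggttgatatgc
Such a match is held by 14.0% of all 94334 region windows of that length, by 7.02% of the 3933 windows with at least 100 Hnf4g reads in EN, and by 4.97% of 22233 windows of 250 bases before start sites. Of the member windows of 250 bases, only that of Xdh held a match.

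The other 4 regions lay at Xdh, Ada, Adk and Hprt. In an intron of Xdh, chr17:74291258-74291988, 7.5 kb downstream of the start, the score was 18 to 23 in CV, 32 to 47 in ENR and 51 to 97 in EN (1.69 ± 0.19). Upstream of Ada by 10.0 kb, in no annotated gene, chr2:163585990-163586375 scored 3 to 8 in CV, 13 to 17 in ENR and 24 to 34 in EN (2.44 ± 0.24), the opposite direction to Ada RNA. In an intron of Adk, 386.9 kb from its start, chr14:22258782-22259347 scored 15 to 22 in CV, 24 to 30 in ENR and 46 to 74 in EN (1.73 ± 0.18). The start site nearest to that region was that of another gene, Myst4, at 59.7 kb. Upstream of Hprt by 16.5 kb, chrX:50324329-50324810 scored 24 to 37 in CV, 29 to 37 in ENR and 7 to 14 in EN (-1.52 ± 0.20). None of the 5 regions was called in H3K27ac between EN and CV by limma.

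**Figure D5:**
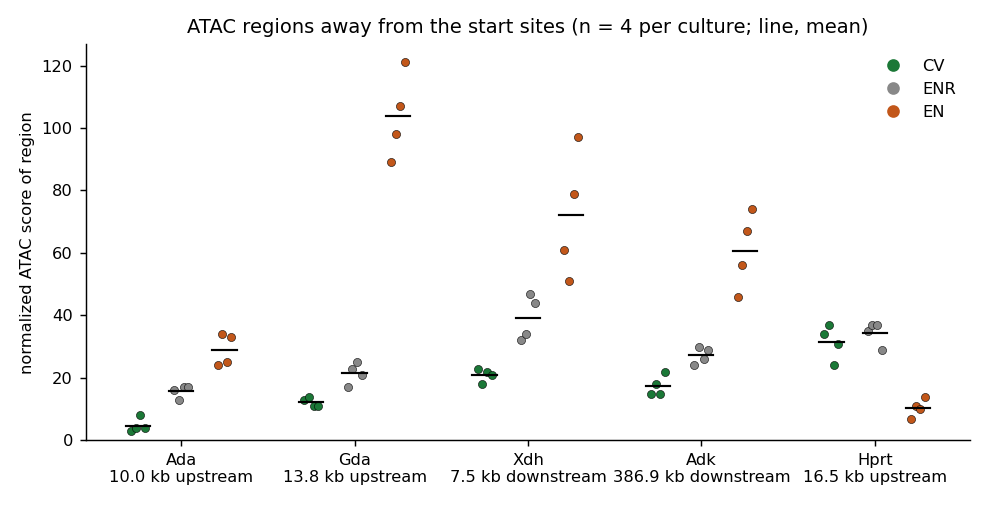
Normalized ATAC score (vertical axis, from 0) of the 5 regions away from start sites, each point 1 of 4 libraries per culture and each line a mean, named by the gene and the distance from its start site. The region named by Adk lay nearer to the start site of Myst4 (59.7 kb). EN stood highest at the Ada, Gda, Xdh and Adk regions and lowest at the Hprt region.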

How the data were processed

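RNA-seq of 12 libraries was used. The authors deposited expected counts per transcript, estimated by kallisto (version 0.43.0 per the submitters' notes) over transcripts whose protein had been quantified, beside TPM values that the authors deposited and mRNA copies per spike-in scaling (a score the authors deposited). Counts were rounded and compared with edgeR 4.0.16 (TMM, all 12 libraries in 1 fit, transcripts above 0 in at least 4 libraries, adjusted p under 0.01). The 92 spike-in transcripts were left out. In simulated data with 200 of 9288 transcripts changed between EN and CV, 100% were recovered at 2-fold and 93.5% at 1.5-fold, with 6 and 2 false calls. Transcripts of low level were not among those changed, and all others stayed the same. In the real data 76.4% were called, so the simulation does not measure recovery under such wide change. Chromatin files held, for each union peak, a normalized score that the authors deposited rounded to whole numbers (BWA, Picard, MACS2, mm9). These were compared with limma 3.58.1 on log2(score + 1), for regions above 0 in at least 3 libraries, at an adjusted p under 0.05. For Hnf4g the authors deposited raw counts. Summed scores were 1752385 to 2109261 for ATAC and 817265 to 1760511 for the histone marks.

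Start sites, exons and sequence came from GENCODE vM1 and the mm9 genome. Groups came from the labels. Further labelled histone libraries and the Hnf4g knockout were not analysed here. Members, lists and tests were chosen with earlier results of these data known. The genes named outside the members are, for each list, the 2 called transcripts that rose most between CV and EN and the 2 that fell most, and for Cda and Ada the 3 nearest transcripts. Adss, Ahcyl1, Fabp1, Mocs1, Mocs3 and the regions away from start sites were picked after their values were seen. Alternatives covered scaling, filters, pseudocounts, thresholds, DESeq2 1.42.0, a replicate block and each library left out.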

Additional observations from a re-analysis of the deposited data

Results flagged for a closer look

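In groups of 4 libraries, the gap between an extreme library and its nearest neighbour was compared with the range of the group, which chance alone passes in about 1 of 20 groups. Of the 63 groups examined (RNA of the members, both Adk transcripts and Pnp2, and ATAC at the start sites), 3 passed, all in RNA. Ada stood at 16.4 CPM in 1 ENR library against 13.1 to 13.3 in the other 3. Adk stood at 129.8 CPM in 1 ENR library against 141 to 144 in the others. Cda stood at 64.9 CPM in 1 CV library against 57.1 to 58.4 in the others. Each is small beside the difference between CV and EN for Ada and Cda, and no call named here for these genes was lost when that library was left out.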

How the results depend on the processing

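In simulated data with 200 regions of a mean score of at least 20 changed 2-fold between EN and CV, limma recovered 68% in ATAC, 49% in H3K27ac, 40% in H3K27me3 and 18.5% in H3K4me3. Of the values of single genes in RNA under the alternatives, 1105 kept their direction and side of the threshold, 14 reversed, 14 lost the call and 6 gained it, and for single regions these numbers were 616, 23, 26 and 10. The cause of a change was not tested. The alternatives for the lists and for regions away from start sites were chosen after seeing the data.

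Members called in RNA numbered 4 between EN and CV with a 2-fold rule, and between CV and ENR 3 on the deposited copies, 3 with spike-in library sizes and 1 with a 2-fold rule. Of all 9288 transcripts, these settings called 3285, 1916, 2636 and 1199, in that order. Start-site regions called between EN and CV numbered 3 in ATAC and 0 in H3K27ac without a trend, and 3 in H3K4me3 at a mean score of at least 5. Over all regions, these settings called 31521 of 94166, 924 of 94215 and 3079 of 20406. With 1 library left out, the RNA counts ranged from 8 to 9 (EN and CV), 7 to 9 (EN and ENR) and 8 to 8 (CV and ENR), and the region counts from 3 to 6 in ATAC, 4 to 4 in H3K27ac, 0 to 2 in H3K4me3 and 0 to 0 in H3K27me3. With spike-in library sizes 7 of the 11 other pyrimidine enzymes were called, and on the deposited copies 3 of the 6 molybdenum cofactor genes.

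Libraries of different cultures share replicate numbers, but the numbers are not a pairing by the labels, and deviations of same-numbered libraries correlated at -0.08 to 0.11 in RNA, 0.07 to 0.46 in ATAC, -0.05 to 0.04 in H3K27ac, -0.08 to 0.13 in H3K4me3 and -0.04 to 0.02 in H3K27me3. Pairs with different numbers correlated at -0.12 to 0.11, -0.45 to 0.21, -0.11 to 0.12, -0.20 to 0.15 and -0.04 to 0.05, in the same order. In ATAC, all 12 same-numbered pairs were thus above 0. Whether they shared a batch was not tested, and the main ATAC fit has no term for it. With the replicate block, 9, 7 and 8 members were called in the RNA comparisons and 6 regions in ATAC, as without it, but 0 regions in H3K27ac, where the block called 0 of all 94215 regions. Under the block, Nt5e in H3K27ac reversed to 0.74 and Pnp in H3K27me3 to -0.089.

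Reversed log2 values in RNA between EN and CV were, on the deposited copies, 0.54 for Adk, 0.21 for Hprt, 0.18 for Nfs1 and 0.17 for Gphn, and for Aprt -0.14 on log2(TPM + 1), -0.13 on log2(TPM + 5) and -0.23 with spike-in library sizes. Between EN and ENR they were 0.86 for Ada and 0.73 for Hprt on the copies, and for Adk -0.0053 and -0.0051 on both TPM scales and -0.36 with spike-in library sizes. Between CV and ENR, Xdh turned to -0.053 with spike-in library sizes and -0.0056 without ENR replicate 2, the lowest of -0.0056 to 0.089 over the libraries left out. Quantile normalization reversed Adk in ATAC (-0.22), and Aprt (-0.33) and Hprt (-0.39) in H3K27ac. Among regions, leaving out 1 library reversed only ones that were not called, whose ranges were -0.055 to 0.094 for Adk in ATAC, -0.23 to 1.30 for Gda, -0.058 to 0.21 for Hprt and -0.55 to 0.61 for Nt5e in H3K27ac, -0.38 to 0.14 for Upp1 in H3K4me3, and -0.32 to 0.76 for Aprt, -0.73 to 0.55 for Cda and -0.28 to 0.93 for Pnp in H3K27me3.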
